A study of Mus musculus with 17 samples.

Results

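Xcl1 and Xcr1 are a chemokine and its receptor, and the 2 genes were followed through every library of a study of PD-L1 in T cells and pancreatic tumours of mice. They are 2 of the 28208 genes shared by the 5 single-cell libraries, and 2 of the 48397 gene rows of the 12 bulk libraries. The pair was chosen by its measured levels in the cell classes and bulk groups of these same data, so those levels are given as a description with no test. Tests were kept for other genes, in cells with and without Xcl1 or Xcr1 and in the bulk comparisons.

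The single-cell libraries hold CD45+ leukocytes sorted from mouse pancreatic tumours 3 weeks after orthotopic implantation, and the labels call the cells tumour-infiltrating T cells. There was 1 library for each of 5 hosts, labelled CD4Cre, PDL1 floxed/floxed, PDL1 floxed/floxed-CD4Cre, PDL1 floxed/WT-CD4Cre and WT, which are written below as CD4Cre, flfl, flfl_CD4Cre, flWT_CD4Cre and WT. None received a treatment. Cd4-driven Cre acts in CD4 and CD8 T cells and is not expected to act in NK or dendritic cells, and CD4Cre carries the recombinase without the floxed Cd274 allele. The sources used here do not give how many mice went into each library. The bulk libraries are labelled WT splenic T cells under anti-CD3 and anti-CD28, in 4 groups of 3: no added protein (Control), control Fc (Ctrl_Fc, 2.5 ug/ml), PD-1 Fc (PD1_Fc, 2.5 ug/ml) and a group titled PDL1_Fc. Nothing says that these triplicates came from separate mice, so their p-values measure only the spread between these samples.

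XCL1, or lymphotactin, is a small secreted chemokine that natural killer (NK) cells and activated CD8 T cells release together with other chemokines. Its receptor XCR1 is carried by type 1 conventional dendritic cells (cDC1), which take up dead cells and present their antigens to CD8 T cells. In tumours the pair is known as a way by which NK and T cells draw cDC1 into the tissue.

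The promoters of both genes are shown because ligand and receptor were read in different cell classes of the same tumours. Xcl1 (ENSMUSG00000026573) lies at chr1:164931644-164935527 on the minus strand of GRCm38, with 3 exons. Its first exon, chr1:164935430-164935527, falls within an exon of the opposite-strand gene Gm20743, which had 0 counts in all 12 bulk libraries; whether counting used strand is not stated. Xcr1 (ENSMUSG00000060509) lies at chr9:123852315-123862029, also on the minus strand, with 2 exons. For Xcl1 the RefSeq start site lies inside the first exon given above, so the end of its window overlaps that exon. The 250 bases before each RefSeq start site on GRCm38.p6 (chr1:164935523-164935772 and chr9:123862030-123862279, minus strand) read 5′ to 3′ as follows, with motif matches in capitals.
Xcl1: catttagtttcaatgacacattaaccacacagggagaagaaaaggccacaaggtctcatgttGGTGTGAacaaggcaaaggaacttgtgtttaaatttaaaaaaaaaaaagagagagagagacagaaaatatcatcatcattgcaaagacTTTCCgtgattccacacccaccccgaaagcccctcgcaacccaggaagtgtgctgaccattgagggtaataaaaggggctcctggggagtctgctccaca
Xcr1: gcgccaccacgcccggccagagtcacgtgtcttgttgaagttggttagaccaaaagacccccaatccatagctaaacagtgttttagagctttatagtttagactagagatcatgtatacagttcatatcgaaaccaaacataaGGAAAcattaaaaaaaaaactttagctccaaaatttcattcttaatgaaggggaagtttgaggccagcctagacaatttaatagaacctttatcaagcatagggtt
4 motifs were searched on both strands. The T-box letters TCACACC occur once before Xcl1, 188 bases from the start and on the opposite strand, and 0 times before Xcr1. They occur in 3.33% of 32851 promoters of the same length. The NFAT core GGAAA occurs once before each gene, as it does in 55.6% of promoters, while the AP-1 letters TGANTCA and the PU.1 letters GAGGAA matched neither window (6.75% and 23.3% of promoters). The GC content was 44% before Xcl1 and 38.8% before Xcr1.

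Cells were placed in classes by UMIs (single RNA molecules counted once) of marker genes, and a cell that met several minima without a clear lead was called mixed. Between 2788 and 4155 cells were kept per library, 16117 in all, with median depths of 6069 UMIs in CD4Cre and 10721 to 13719 in the other 4. T cells made up 1.52% to 2.36% of cells in the 3 libraries with Cre, 12.2% in WT and 18.8% in flfl. By these markers libraries labelled as T cells thus held mostly cells outside the T cell classes. Of all cells kept, 3832 were mixed and 1073 were classed as epithelial or stromal, although CD45+ leukocytes were sorted. The Cre libraries share cell barcodes: 1414 between CD4Cre and flfl_CD4Cre, 1710 between CD4Cre and flWT_CD4Cre and 1856 between flfl_CD4Cre and flWT_CD4Cre, against 12 between flfl and WT. The weaker copy held a median of 1.89% to 2.83% of the UMIs of the stronger one, and the stronger copy was kept. Cd274, the gene of PD-L1 and the target of the floxed allele, read 47.6 UMIs per 1000000 UMIs of the class (CPM) in all T cells of CD4Cre, 48.8 in flfl_CD4Cre, 37.4 in flWT_CD4Cre, 8.96 in flfl and 6.42 in WT. The counts thus show no lower Cd274 in T cells of the library labelled flfl_CD4Cre, and whether these reads cover the floxed exons was not tested. Macrophages and monocytes had the same 3 libraries on top, at 197, 123, 216, 35.9 and 29.5 CPM in the same order. The T cell values thus followed a difference between libraries that was not limited to T cells, and its cause was not tested.

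Xcl1, the ligand, was carried by NK cells and by T cells with CD8. All 5 libraries together held 7970 Xcl1 UMIs in 731 cells, of which CD8 T cells carried 59.0%, T cells with NK markers 16%, mixed cells 9.41% and NK cells 8.54%. NK cells (Ncr1, Klre1 and related receptors, no CD3 lead) read 1941 CPM in flfl (24 cells, 95% counting interval 1758 to 2137) and 3126 in WT (11 cells, 2749 to 3542). The 3 Cre libraries held 9, 6 and 3 NK cells, with 13, 3 and 3 Xcl1 UMIs (317, 47.1 and 109 CPM). NK values are thus firm in counting terms only in flfl and WT, where they were the highest of the marker classes.

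CD8 T cells, the killer T cells of the tumour, read 1005 CPM in CD4Cre (31 cells, 882 to 1141), 321 in flfl_CD4Cre (18 cells, 229 to 437), 321 in flWT_CD4Cre (25 cells, 264 to 386), 747 in flfl (357 cells, 719 to 775) and 848 in WT (208 cells, 806 to 890). T cells with NK markers read 1202, 90.9, 567, 531 and 1171 CPM in the same order. Gamma delta T cells held 25 UMIs in 7 cells of CD4Cre, 31 in 8 cells of flfl and 0 in the 6 cells of the other libraries. CD4 T cells were lower, at 6.16, 0, 27.5, 78.8 and 117 CPM, and regulatory T cells held 0 UMIs in 47 cells. A count of 0 in the 12 cells of CD4Cre allows a share of cells with a UMI of up to 25% by the 3-count floor (26.5% by the exact binomial limit), and 0 in the 5 cells of WT up to 60% (52.2%). In every library the CD8 T cell level stood above that of CD4 T cells, a description of levels by which the pair was chosen. The intervals cover counting error only and take UMIs as independent, while 1 CD8 T cell of CD4Cre held 227 of the 240 UMIs.

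The order of the marker classes was NK, then CD8 T and T with NK markers, then CD4 T in flfl and WT. CD8 T cells and T cells with NK markers changed places between libraries and cannot be ordered. Among other classes, neutrophils of flfl read 154 CPM, and 12.5 without 1 cell. Macrophages and monocytes read 0.0481 to 6.71 CPM, and cDC1 cells, the receptor class, read 0 CPM in the 3 Cre libraries, 5.47 in flfl and 2.71 in WT. Placed by markers alone and with no class assigned, cells with neither CD3 nor NK markers read 1.47 CPM (1.27 to 1.70), cells with CD3 and Cd4 read 23.1 (17.1 to 30.5), cells with CD3 and Cd8 read 311 (299 to 323), and cells with CD3 and NK markers read 532 (515 to 551). Cells with NK markers and no CD3 read 9.97 (8.97 to 11.1) over 885 cells, and 351 (316 to 390) over the 82 of them under the epithelial minimum. These 82 read 778 CPM in flfl, against 608 with CD3 and NK markers, and 451 in WT, against 866. By markers alone NK cells were thus not the highest in WT, and the order of NK and T cells depends on how NK cells are defined. Over all cells with exactly 2 NK marker UMIs, the NK minimum, the level was 119 CPM, against 70.9 with 1 fewer and 163 with 1 more. Of the 306 cells at the minimum 4 were in the NK class, so these levels describe mostly cells outside it.

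**Figure D1:**
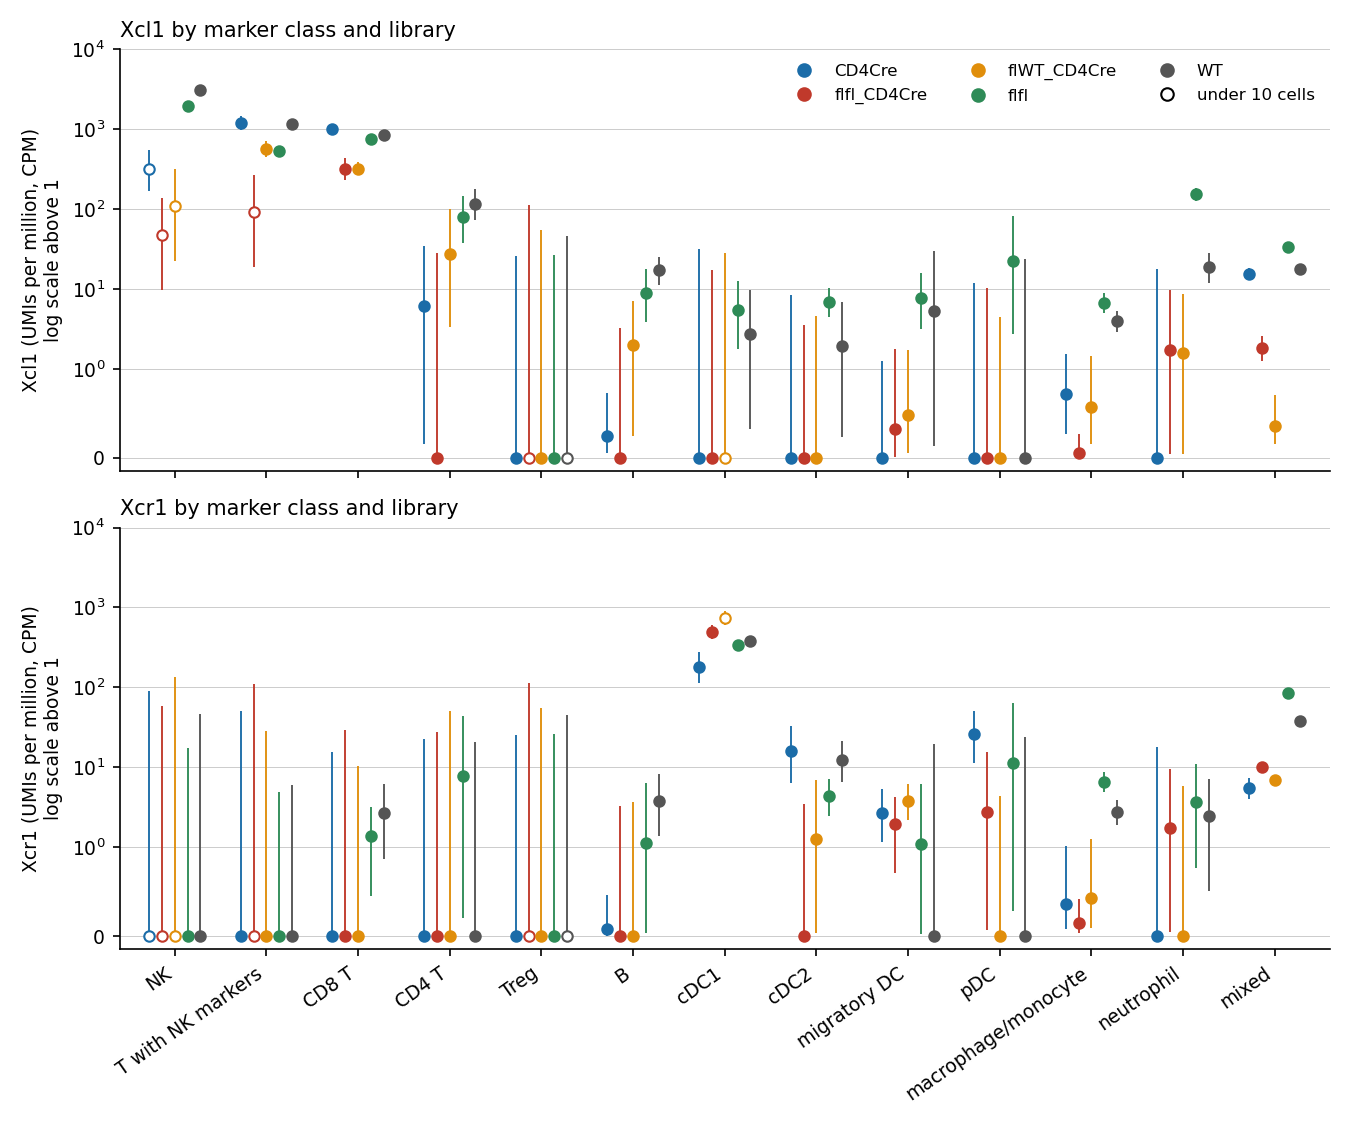
Xcl1 (top) and Xcr1 (bottom) in UMIs per 1000000 (CPM, log scale above 1) by marker class; each point is 1 library, bars are 95% Poisson counting intervals, and open points hold under 10 cells. Xcl1 is highest in NK cells of flfl and WT (1941 and 3126 CPM), and in CD8 T cells or T cells with NK markers of the Cre libraries. NK cells of those libraries, under 10 cells each, read 47.1 to 317 CPM. Xcr1 is highest in cDC1, with 182 to 747 CPM.

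Few cells held most of the ligand. Of 639 CD8 T cells, 452 had 0 Xcl1 UMIs, 22 had 50 or more, and the 64 fullest cells carried 90% of the class's Xcl1 UMIs. Of 53 NK cells, 18 had 0 UMIs and the median was 5 UMIs. In flfl, 91.7% of NK cells (22 of 24, exact binomial interval 73.0% to 99.0%) and 33.3% of CD8 T cells (119 of 357, 28.5% to 38.5%) had an Xcl1 UMI, at median depths of 6397 and 8104 UMIs. In WT the shares were 81.8% (9 of 11, 48.2% to 97.7%) and 25% (52 of 208, 19.3% to 31.5%). B cells, which are not known to make XCL1, had a UMI in 6.11% of cells in flfl and 6% in WT, at median depths of 5392 and 6340. With each cell thinned to 1500 UMIs, the NK shares were 70.8% and 72.7% and the CD8 shares 16.8% in both libraries.

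The fullest CD8 T cell of WT held 598 Xcl1 UMIs, that of flfl 293 and that of CD4Cre 227. These cells also held 84, 127 and 87 UMIs of Ccl1, another chemokine of activated T cells. The fullest cells of flWT_CD4Cre and flfl_CD4Cre held 42 and 29 Xcl1 UMIs and 0 Ccl1 UMIs. Without its fullest cell the CD8 level was 56.8 CPM in CD4Cre, 94.0 in flfl_CD4Cre, 225 in flWT_CD4Cre, 673 in flfl and 533 in WT. A single cell thus set most of the CD4Cre value.

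**Figure D2:**
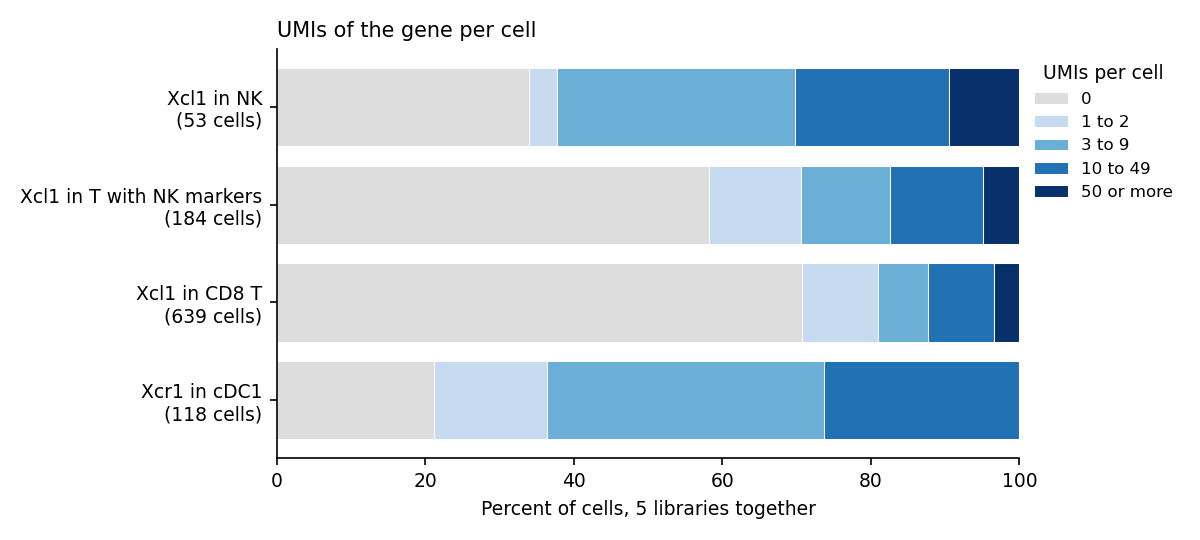
Share of cells (percent, 5 libraries together) by the number of UMIs of the gene in the cell, for Xcl1 in NK cells, T cells with NK markers and CD8 T cells, and for Xcr1 in cDC1. Most CD8 T cells (452 of 639) hold 0 Xcl1 UMIs and 22 hold 50 or more, while most cDC1 (93 of 118) hold at least 1 Xcr1 UMI and none holds 50.

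The floxed allele with Cre can be set beside Cre alone, with 1 library on each side and so no test between genotypes. In CD8 T cells flfl_CD4Cre held 40 Xcl1 UMIs in 18 cells and CD4Cre 240 in 31, a ratio of 0.319 (0.222 to 0.447, counting error only). Without the fullest cell of each library the counts were 11 and 13 UMIs, and the direction turned (ratio 1.65, 0.671 to 4). In NK cells the counts were 3 and 13 UMIs (ratio 0.149, 0.0272 to 0.541), in 6 and 9 cells. Without shared barcodes the NK ratio was 0.368 (0.0673 to 1.34), an interval that takes in 1. flWT_CD4Cre, with 1 floxed allele, stood beside flfl_CD4Cre in CD8 T cells (321 CPM each), and flfl and WT stood between these and CD4Cre. Without the fullest cell of each library CD4Cre was the lowest of the 5, and flfl and WT stood above all 3 Cre libraries. That step takes out 1 of 31, 18 or 25 cells in the Cre libraries, but 1 of 357 or 208 in flfl and WT. It weighs more on the libraries with few cells, so no order of libraries is read from it.

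Per library, rather than per cell of a class, the ligand had the same order as the number of T cells (98, 52, 64, 524 and 341). Xcl1 read 14.3 CPM over all cells of CD4Cre, 1.37 in flfl_CD4Cre, 3.91 in flWT_CD4Cre, 121 in flfl and 78.3 in WT. Cells with at least 10 Xcl1 UMIs numbered 8, 2, 4, 88 and 52, and carried 67.1% to 87.5% of each library's Xcl1 UMIs. As shares of all cells kept, these were 0.193% in CD4Cre (0.0832% to 0.379%), 0.0584% in flfl_CD4Cre (0.00707% to 0.211%), 0.136% in flWT_CD4Cre (0.0370% to 0.347%), 3.16% in flfl (2.54% to 3.87%) and 1.86% in WT (1.39% to 2.43%). The 2 libraries without Cre were higher than the 3 with it, and they also share no large set of barcodes with them, so genotype and library set cannot be told apart.

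Across 49 sums of 1 class in 1 library (14 classes, at least 20 cells each), the 5 genes most like Xcl1 were the following. Pearson's r of log2(CPM + 1) was 0.926 with Nkg7, a protein of cytotoxic granules, 0.919 with Ctsw (cathepsin W of NK and CD8 T cells), 0.917 with Fasl, the death ligand, 0.913 with Samd3 and 0.913 with Klrc1, the NKG2A receptor chain. The sums share libraries, so r is a description. Of the genes used to place cells, Cd3g stood closest (r = 0.880) and the NK receptor Klre1 at 0.827. Nkg7 itself averaged 4446 CPM in T cells with NK markers, its highest class, 2805 in CD8 T cells and 23.4 in cDC1. In NK cells it read 2997 CPM, from flfl alone.

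To ask what else differs in CD8 T cells with Xcl1 RNA, cells were thinned to 1500 UMIs and split by whether an Xcl1 UMI was left, and counts were summed per library and state. Only flfl (60 cells with and 297 without) and WT (35 and 173) had at least 10 cells in each state, so the fit had 2 libraries as blocks. Before thinning 119 cells of flfl and 52 of WT had an Xcl1 UMI. Cells called without Xcl1, here and below, thus include some that had it before thinning. 4 of 2459 genes passed an adjusted p of 0.05 in edgeR's quasi-likelihood test (0.163%), 2 higher and 2 lower in cells with Xcl1 (0.0813% each way), and 222 genes had an unadjusted p under 0.05. Of the 4, DESeq2 called 2, and 1 was called when cells were not thinned. All 4 encode secreted proteins: 3 are chemokines and 1 is a granzyme. None had its highest class mean in CD8 T cells: Ccl1 was highest in CD4 T cells and Ccl3 in neutrophils. Ccl5 was highest in T cells with NK markers and Gzma in NK cells. Cells with Xcl1 were somewhat deeper before thinning, with medians of 9386 against 7790 UMIs in flfl and 9591 against 6943 in WT.

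Ccl1, which draws CCR8-bearing cells, read 467 CPM with Xcl1 and 33.7 without in flfl, and 305 and 11.6 in WT. It was higher by 3.91 on the log2 scale (SE 0.325, edgeR adjusted p = 0.00057). Here too 1 cell weighed heavily: without the fullest Xcl1 cell of each library, Ccl1 had 38 UMIs with and 15 without Xcl1 in flfl, 2 and 3 in WT, and no longer entered the test. Counted by cells over all 5 libraries, 15 of 107 CD8 T cells with Xcl1 had a Ccl1 UMI, against 10 of 531 without. By library the shares were 16.7% (8.29% to 28.5%) and 2.69% (1.17% to 5.24%) in flfl. In WT they were 8.57% (1.8% to 23.1%) and 1.16% (0.14% to 4.11%), with overlapping intervals. A second fit used 4 clusters named CD8 T-like, in which 352 of 482, 99 of 275, 118 of 172 and 62 of 113 classed cells were CD8 T cells; it had CD4Cre as a further library. There Ccl1 was higher by 4.18 (SE 0.319, edgeR adjusted p = 9.59e-17). Without flfl, or without WT, the cluster fit called 0 genes, so each cluster call given here and below ends when either library is left out.

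Ccl3, an inflammatory chemokine of activated T cells, read 2367 CPM with Xcl1 and 1160 without in flfl, and 3771 and 2066 in WT. The difference was 0.90 on the log2 scale (SE 0.118, edgeR adjusted p = 0.00983). The share of cells with a Ccl3 UMI was 40% with Xcl1 and 37.7% without in flfl, and 51.4% and 37.6% in WT, with overlapping intervals. In the clusters it was 0.34 (SE 0.113) and did not pass (adjusted p = 0.179). Its neighbour Ccl4 read 2822 and 2112 CPM in flfl and 4076 and 2119 in WT, a difference of 0.61 that did not pass (adjusted p = 0.254).

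Ccl5, or RANTES, went the other way, at 4611 CPM with Xcl1 and 7450 without in flfl and 3810 and 6624 in WT. It was lower by a log2 difference of -0.79 (SE 0.1, edgeR adjusted p = 0.00949), and by -0.55 in the clusters (adjusted p = 1.41e-05). Gzma, granzyme A, read 11.1 and 220 CPM in flfl and 19.1 and 293 in WT, from 1 UMI in each sum with Xcl1. The share of cells with a Gzma UMI was 1.67% and 5.72% in flfl and 2.86% and 5.78% in WT, with overlapping intervals. The log2 difference was -4.13 (SE 0.509, edgeR adjusted p = 0.00949), while in the clusters it was -0.58 (SE 0.160, adjusted p = 0.0448). With sums of at least 3 cells, which bring in CD4Cre and flWT_CD4Cre, neither Ccl5 nor Gzma passed (adjusted p = 0.833 and 0.935). In CD4Cre both were higher in the 5 cells with Xcl1, Gzma at 3733 against 1436 CPM and Ccl5 at 18000 against 11870.

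**Figure D3:**
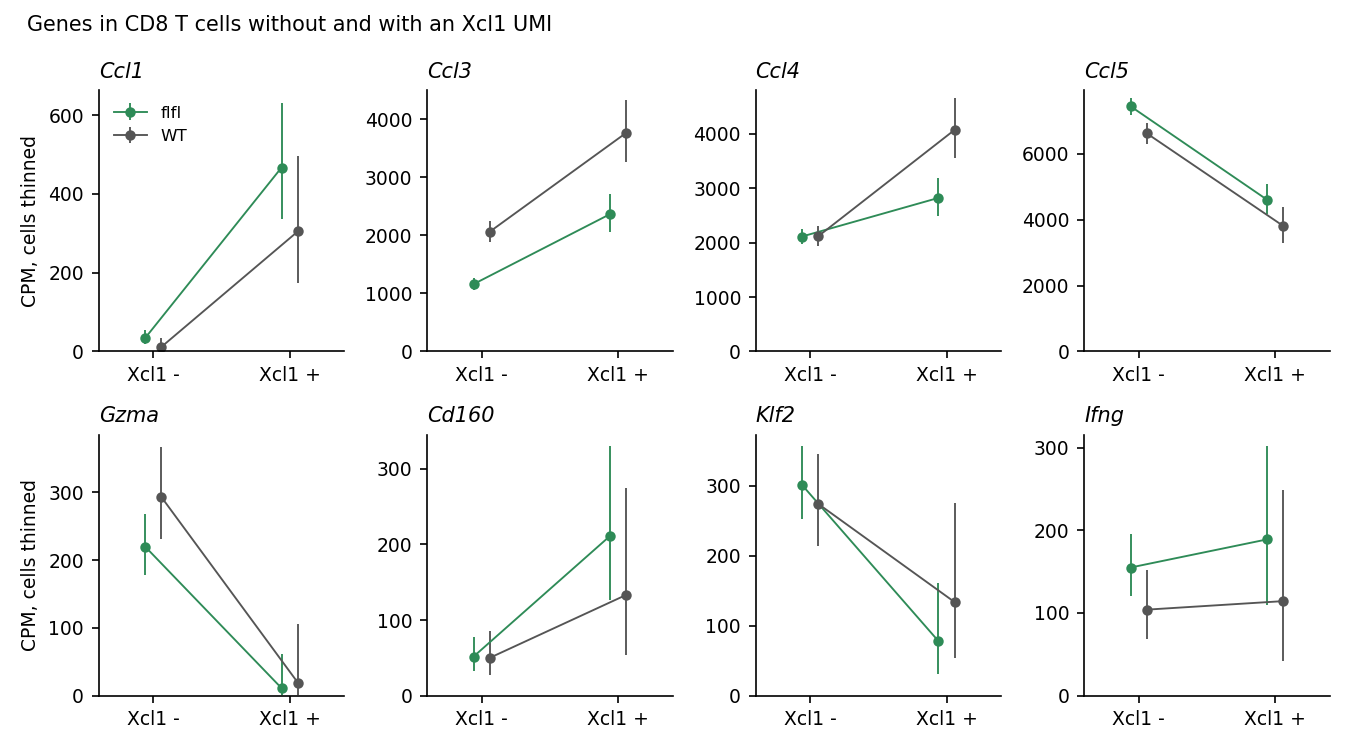
CPM of 8 genes in CD8 T cells without (Xcl1 -) and with (Xcl1 +) an Xcl1 UMI after thinning to 1500 UMIs, in flfl and WT; points are sums over the cells of 1 library and bars are 95% Poisson counting intervals. Ccl1, Ccl3, Ccl5 and Gzma passed the test across all genes; Ccl4, Cd160, Klf2 and Ifng did not.

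The other members of the gene lists did not pass. Of 12 T cell cytokines and chemokines 6 could be tested, with 2 higher, 1 lower and a median log2 difference of 0.40 (all genes -0.01); Ifng, interferon gamma, differed by 0.19 (SE 0.308, edgeR adjusted p = 0.939). Of 16 genes of antigen-receptor activation 8 could be tested and 0 passed, with Nr4a1, an immediate target of the receptor, at 1.55 (SE 0.386, adjusted p = 0.372). Of 10 inhibitory receptors and related genes 6 were tested and 0 passed, among them Pdcd1 (PD-1) at 0.24 and Lag3 at 0.18. Cd160, an inhibitory receptor of killer cells, had a UMI in 23.4% of cells with Xcl1 and 7.53% without. Its log2 difference was 1.77 (adjusted p = 0.174), and 1.86 in the clusters (adjusted p = 5.32e-06). Klf2, a factor of resting T cells, was the single naive-cell gene tested, at -1.605 (adjusted p = 0.174) and -0.82 in the clusters (adjusted p = 0.0259). Of 14 cell-cycle genes tested 0 passed, with a median of 0.04. For NK cells no library but flfl came near 10 cells per state (17 and 7), and no fit was made.

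Xcr1, the receptor, was carried by cDC1. All libraries together held 2789 Xcr1 UMIs in 491 cells. cDC1 cells (Clec9a, Cadm1, Tlr3, Wdfy4, Snx22, Gcsam) read 182 CPM in CD4Cre (11 cells, 113 to 279), 496 in flfl_CD4Cre (10 cells, 406 to 600), 747 in flWT_CD4Cre (9 cells, 607 to 911), 344 in flfl (49 cells, 307 to 384) and 378 in WT (39 cells, 335 to 425). The intervals of flfl and WT overlapped, while CD4Cre read lowest and flWT_CD4Cre highest. Their depth differed as well, with median UMIs per cDC1 cell of 7668, 20903, 9712, 17522 and 16982. The share of cDC1 with an Xcr1 UMI was 36.4%, 70.0%, 100%, 83.7% and 82.1%, and after thinning to 1500 UMIs it was 9.09%, 40%, 44.4%, 36.7% and 41.03%. In B cells the unthinned share was at most 0.763%.

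Other dendritic cells held little of the receptor. Type 2 dendritic cells (cDC2) read 15.99, 0, 1.26, 4.34 and 12.5 CPM in the same order of libraries, and migratory dendritic cells 2.69, 1.94, 3.81, 1.11 and 0. Plasmacytoid dendritic cells held 8 UMIs in 1 cell of CD4Cre (26.0 CPM) and 2 elsewhere. Macrophages and monocytes read 0.144 to 6.58 CPM. NK cells and T cells with NK markers, 53 and 184 cells, held 0 Xcr1 UMIs, and 639 CD8 T cells held 10. In each library the cDC1 level stood above that of every other dendritic class, again a description with no test.

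The strict classes missed much of the receptor: cDC1 cells held 29.3% of Xcr1 UMIs and mixed cells 63.0%. Of the UMIs in mixed cells, 98.1% lay in the 1013 mixed cells that met the cDC1 minimum. Ordering all cells by their cDC1 marker UMIs alone gave 0.742 CPM of Xcr1 at 0 marker UMIs (7961 cells), 1.78 at 3 to 5, 11.9 at 6 to 10, 98.3 at 11 to 20 and 417 above 20 (148 cells, 398 to 438). In this last bin 89.9% of cells had an Xcr1 UMI. The libraries differed within bins: at 11 to 20 marker UMIs Xcr1 read 27.8 CPM in CD4Cre, 20.8 in flfl_CD4Cre and 8.05 in flWT_CD4Cre, against 138 in flfl and 207 in WT. Above 20 it read 210.0, 516, 684, 411 and 339 CPM in that order. By Clec9a alone, the receptor for dead cells on cDC1, Xcr1 rose from 1.52 CPM without Clec9a to 588 CPM in the 26 cells with more than 10 Clec9a UMIs, all of which had Xcr1. Over all cells with exactly 3 cDC1 marker UMIs, the cDC1 minimum, the level was 1.70 CPM. It was 2.07 with 1 fewer and 1.12 with 1 more. Of the 967 cells at the minimum 5 were in the cDC1 class, so these levels describe mostly cells outside it.

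**Figure D4:**
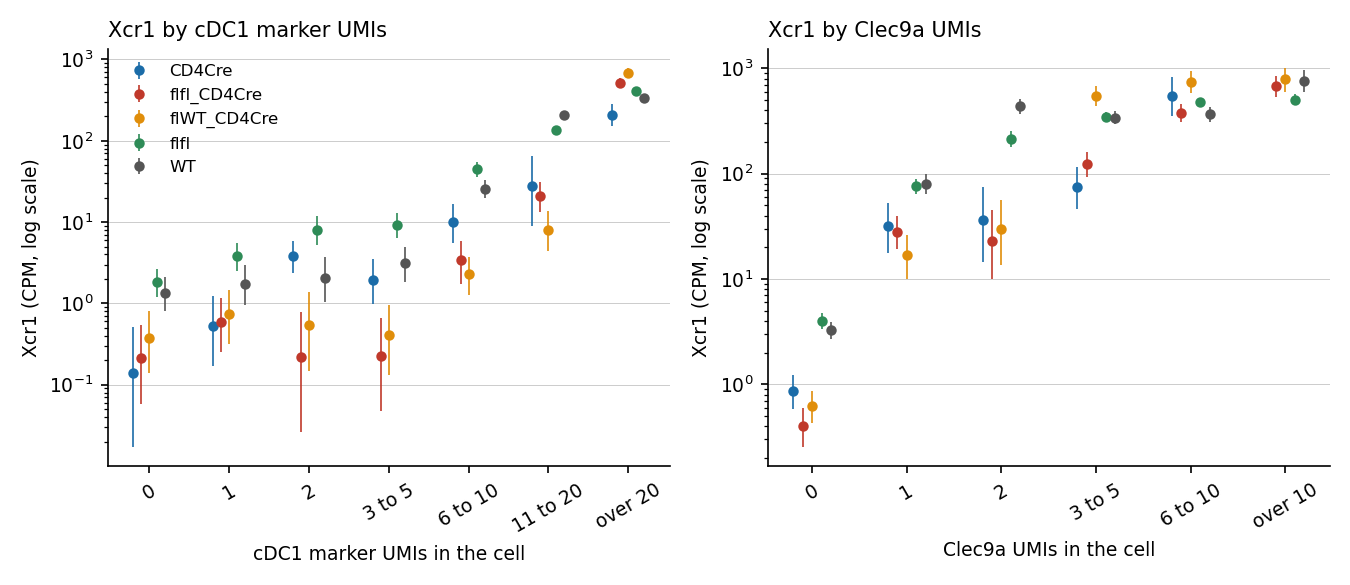
Xcr1 (CPM, log scale) in all cells binned by UMIs of the 6 cDC1 markers together (left) and of Clec9a alone (right); points are libraries and bars are 95% Poisson counting intervals. Xcr1 is highest in the top bins, at 417 CPM over all libraries above 20 marker UMIs and 588 CPM above 10 Clec9a UMIs.

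A cluster found without either gene and named cDC1-like from the same markers held 275 cells and 2064 Xcr1 UMIs, at 413 CPM (396 to 431), and 91.6% of its cells had Xcr1. By library it read 400 CPM in CD4Cre (14 cells, 296 to 529), 529 in flfl_CD4Cre (15 cells, 449 to 620), 742 in flWT_CD4Cre (17 cells, 650 to 844), 370 in flfl (155 cells, 349 to 393) and 408 in WT (74 cells, 374 to 445). Here CD4Cre no longer stood below flfl and WT. flfl_CD4Cre against CD4Cre gave a ratio of 2.72 (1.69 to 4.57) by the marker classes and 1.32 (0.952 to 1.86) by the cluster, with 1 library each and no test. The cluster made up 0.337% of cells in CD4Cre, 0.438% in flfl_CD4Cre, 0.577% in flWT_CD4Cre, 5.56% in flfl and 2.64% in WT, so the receptor-bearing cells had the same 2 libraries on top as the ligand-bearing ones. The shares depend on the sort and on all other cells in each library.

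Other genes of the cDC1 programme were read as class means over libraries with at least 20 cells of the class, which are flfl and WT for cDC1 and all 5 for cDC2 and migratory dendritic cells. Of 15 listed genes 9 were highest in cDC1, a description given without the share over all genes. Irf8, the transcription factor that cDC1 need, averaged 2125 CPM in cDC1 and 112 in cDC2. Naaa, an acid amidase, averaged 1838 and 353 CPM, Rab7b 209 and 9.84, and Ifi205 570 and 72.4. Batf3, the other factor of the lineage, averaged 260 CPM in cDC1 and 328 in migratory dendritic cells, and Flt3, the growth factor receptor, 157 and 205.

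Over the same 49 sums the genes most like Xcr1 were Mycl (r = 0.732), a MYC family factor of cDC1, Bloc1s2 (0.698), Sept3 (0.668), Ppm1m (0.647) and Ppp1r11 (0.645). Among the markers used to place cells, Snx22 (0.777) and Clec9a (0.726) were close. These values were lower than those of the ligand's neighbours, and only 2 of the sums are cDC1.

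Within cDC1, cells with and without Xcr1 after thinning reached 10 cells per state in 2 libraries. A fit on cDC1 was set to need 3, so it was not made; the CD8 T cell fit, on 2 libraries, had no such minimum. With sums of at least 3 cells, chosen after the data were seen, 4 libraries entered and 0 of 227 genes passed in edgeR's quasi-likelihood test (0.00%), 17 with an unadjusted p under 0.05. The smallest p values were those of Psap (0.54), Plbd1 (0.74) and Txn1 (0.67) on the higher side, and Ifitm2 (-1.04), Ptma (-0.47) and Crip1 (-0.47) on the lower side, as log2 differences with adjusted p from 0.17 to 0.252. Of the cDC1 programme, Naaa differed by 0.54 and Irf8 by 0.50 without passing (adjusted p = 0.252 and 0.445).

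Ligand and receptor were each read in few droplets, Xcl1 in 731 cells and Xcr1 in 491. Of 16117 cells 40 had UMIs of both genes, and 21 of these were mixed cells.

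In the bulk libraries the ligand was not counted, and the receptor was counted mainly in Control and PDL1_Fc. Xcl1 had 0 counts in all 12 libraries, at gene totals of 3473884 to 18557390, which allows up to 0.162 to 0.864 CPM per library (3 counts). It could not be tested in any comparison.

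Xcr1 had 68, 68 and 56 counts in Control (3.67, 3.66 and 3.35 CPM) and 51, 55 and 67 in PDL1_Fc (3.33, 3.70 and 4.18 CPM). The groups overlapped, as 7.81% of genes did not, with means of 3.56 ± 0.185 and 3.74 ± 0.428 CPM (SD, n = 3). The log2 difference was 0.06 (SE 0.249), with no test of it, and 0 of 14653 genes passed edgeR's quasi-likelihood test in this comparison (0.00%), 528 with an unadjusted p under 0.05 and 0 with DESeq2. In Ctrl_Fc Xcr1 had 1, 1 and 0 counts and in PD1_Fc 0, 0 and 0, at or below the 3 counts that a library can resolve. No fold is given between these 2 groups; in edgeR's test 7 of 14653 genes passed (0.0478%), 1 higher (0.00682%) and 6 lower (0.0409%).

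Ctrl_Fc held 2 Xcr1 counts against 192 in Control. Control read 14.3 times what 3 counts over the Ctrl_Fc libraries would give. The counting interval of the ratio of Ctrl_Fc to Control was 0.00561 to 0.171, given with no test. The groups did not overlap, as 91.9% of genes did not, and 91.8% of genes passed, 47.4% lower. This comparison crosses 2 sets of libraries that differ in much else. Control and PDL1_Fc had 14880455 to 18557390 gene counts and 8.95% to 11.2% unaligned reads, and Ctrl_Fc and PD1_Fc 3473884 to 5006301 and 79.9% to 80.4%. The T cell markers did not go together: Cd3d had 0 counts in all Ctrl_Fc and PD1_Fc libraries, where Cd3e was high. Cd3e averaged 0.0360 and 0.110 CPM in Control and PDL1_Fc against 258 and 248 in Ctrl_Fc and PD1_Fc. Lyz2, a lysozyme of macrophages, averaged 21380 and 21580 against 63.8 and 66.0 CPM. B2m, which nearly all cells make, averaged 12540 and 12900 CPM in Control and PDL1_Fc and 37.1 and 37.7 in Ctrl_Fc and PD1_Fc. The part of this in the Xcl1 counts of 0 was not tested. The libraries in which Xcr1 was counted thus had almost no Cd3e, against their T cell label, and set and treatment cannot be told apart. In bulk samples fewer cells of a type and less RNA per cell cannot be told apart either.

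**Figure D5:**
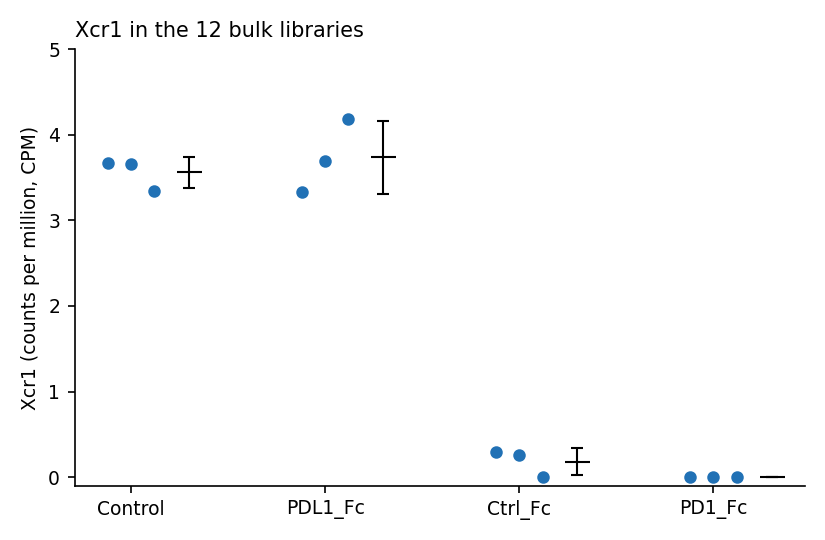
Xcr1 in counts per 1000000 in the 12 bulk libraries (points) by group, with the group mean and SD (n = 3) beside them. Control and PDL1_Fc lie between 3.33 and 4.18 CPM and overlap; Ctrl_Fc and PD1_Fc lie at or near 0.

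The cDC1 markers followed only in part. In Control, Clec9a averaged 1.14 CPM, Tlr3 20.7, Wdfy4 28.8, Snx22 1.38 and Gcsam 0.0180, and Clec9a had 0 counts in all Ctrl_Fc and PD1_Fc libraries. Cadm1, also a cDC1 marker, ran the other way, with 4.62 CPM in Control and 45.3 in Ctrl_Fc. Of the 15 genes of the cDC1 programme 13 could be tested, and 0 passed either for PDL1_Fc against Control or for PD1_Fc against Ctrl_Fc. Of the 12 T cell cytokines and chemokines 8 could be tested, again with 0 passing in both. Ifng had 4 counts in Control and 0 in the other 9 libraries, and Ncr1 had 0 counts in all 12.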

How the data were processed

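The authors deposited raw read counts per gene for 12 bulk libraries and UMI counts for 5 single-cell libraries. Per the submitters' processing notes, STAR, HTSeq, bedtools, bcl2fastq and Cell Ranger were used on mm10; Cell Ranger was version 3.1.0 per the file headers of 3 matrices, and other versions are not stated. HTSeq summary rows stayed out of library sizes. Groups follow titles: the treatment field conflicts with them for 4 bulk libraries (PD1_Fc replicate 3 and the 3 PDL1_Fc libraries), and file names of flWT_CD4Cre and WT conflict with their labels.

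A barcode needed 200 genes and no more than 10% mitochondrial UMIs. Doublets were taken out by Scrublet score, at 0.8% per 1000 cells (scanpy 1.11.5). A cell took the class whose marker minimum it met (2 UMIs for T and NK, 3 for cDC1); one meeting several within a ratio of 3 was mixed. Clusters (Leiden, resolution 2.0, 43 clusters) were an alternative. CPM of a class is its summed UMIs of the gene per 1000000 UMIs of the class. Intervals are exact Poisson or Clopper-Pearson at 95% and cover counting error only. Bulk counts and sums were fitted with edgeR 4.0.16 (TMM, expression filter, robust quasi-likelihood, Benjamini-Hochberg over all genes), with DESeq2 1.42.0 as an alternative, and the fits were tested on simulated data. Pooled cells of a library are not replicates.

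The members, gene lists and tests were chosen with earlier results of these data known. Named genes are the pair, markers, list members, the 5 genes most like each, genes past the threshold by size, and, in a comparison with none past it, the 3 with the smallest p in each direction. Lyz2 was named after its values were seen. Proteins were not analysed here.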

Additional observations from a re-analysis of the deposited data

How the results depend on the processing

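Xcr1 in PDL1_Fc against Control ranged from -0.04997 (without PDL1_Fc replicate 3, the 1 value below 0) to 0.08893 on the log2 scale when a replicate was left out. With the replicate number as a block it was 0.06052, and the numbers pair nothing (r from -0.126 to 0.0892). DESeq2 called 18 genes for PD1_Fc against Ctrl_Fc, where edgeR called 7. Xcl1 in bulk, and the NK and cDC1 splits, gave no value to vary. Genes called in CD8 T cells with Xcl1 numbered 4 as reported, and 4 with DESeq2 size factors or without the fullest Xcl1 cell of each library. They numbered 2 with DESeq2, 24 without a filter, 21 without thinning (1 of the 4 among them), 16 when thinned to 1000 UMIs, 9 without the library block, 26 in clusters and 2 with at least 3 cells per sum. Leaving out a library, possible only in clusters, gave 0 without flfl or WT and 52 without CD4Cre, so the count rests on flfl and WT. The CD8 T cell level of flfl_CD4Cre over CD4Cre was 0.228 to 0.382 in 8 alternatives and 1.65 without the fullest cell. The median CD8 level over libraries, 747 CPM, fell to 426 CPM with the marker minima raised by 1 UMI and to 225 CPM without the fullest cells. The cDC1 ratio of 2.72 was 1.32 by clusters, 7.60 without shared barcodes, 5.5 when thinned and 5.66 without the fullest cell. All settings on shared barcodes, fullest cells, mixed cells and 3 cells per sum were chosen after the data were seen. No cluster was NK, and flfl_CD4Cre had 0 thinned NK UMIs, so those settings gave no NK ratio. The causes were not tested. Cell numbers limit the Cre libraries, with 3 to 9 NK and 9 to 11 cDC1 cells each.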

Other observations

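Outside T, NK and mixed cells, 401 Xcl1 UMIs were spread over 11153 cells, and 1 cell held 114 of them. It came from flfl and was placed among neutrophils by 126 neutrophil-marker UMIs, 83 of them S100a8. The cell held 0 CD3 UMIs, 4 Ncr1 UMIs and, of the chemokines, 133 Ccl4 and 84 Ccl3 UMIs. It alone brought the neutrophil level of flfl to 154 CPM, the highest outside T and NK cells.

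Ccl1 and Xcl1, both high in single CD8 T cells of CD4Cre, flfl and WT, had class means in a different order, over unlike sets of libraries. In flfl, Ccl1 averaged 122 CPM in NK cells, and it averaged 29.0 CPM in T cells with NK markers and 208 CPM in CD8 T cells over libraries with at least 20 cells. Xcl1 averaged 1941, 851 and 730 CPM in the same sums. The NK value is from flfl alone, while the CD8 mean takes in CD4Cre, where 1 cell held 87 Ccl1 UMIs. Thinned CD8 T cells of flfl read 467 CPM of Ccl1 with Xcl1 and 33.7 without. Ccl1 in NK cells was thus not shown to be below CD8 T cells of the same library. The class mean of Ccl1 was highest in CD4 T cells. These values are a description with no test.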
